A study of Mus musculus with 8 samples.

Results

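Chromosome 19 is the shortest of the 19 autosomes of the mouse, and it was followed here on its own through the Hi-C contact maps of mouse embryonic stem cells (mESCs) in which LINE1 (L1) RNA was targeted. Its members are the 123 consecutive 500-kb bins of this chromosome on the mm9 build, among 5322 bins in the whole genome. They were chosen by position, with no measured value. Of these, 117 bins were kept and 6 dropped: the 6 bins, which cover the first 3.0 Mb next to the centromere, held no contact in any sample. Over the genome 5093 bins were kept.

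The study asked whether L1 RNA shapes the folding of chromosomes. The SCR AMO group received a scrambled antisense morpholino (AMO), labelled Scramble, and the L1 AMO group received a morpholino antisense to L1 RNA, labelled LINE1-AMO, both at 5 nmol in 100 µl by nucleofection. Transfected cells were sorted at 12 h and harvested at 36 h, and each group has 2 Hi-C samples from independent transfections. The labels call the Hi-C cells Mouse ESCs and give no line for them, and no file used here measures L1 RNA in these samples.

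In Hi-C, DNA segments that lie close together in the nucleus are ligated and sequenced, so that each read pair counts as a contact between 2 bins. Mouse chromosomes alternate between an active A compartment, rich in genes and in short B1 repeats, and a silent B compartment. The B compartment is rich in L1 repeats and often found at the nuclear lamina or around the nucleolus. Segments of the same compartment contact each other across long distances (homotypic contacts) more than segments of opposite compartments do (heterotypic contacts), which gives the map its plaid pattern.

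The oligonucleotides are shown because they are the only difference in treatment between the groups, 5′ to 3′ in lower case:
L1 AMO: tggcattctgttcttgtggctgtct
SCR AMO: cctcttacctcagttacaatttata
Both are 25 bases long. The L1 AMO oligonucleotide holds 12 G or C bases and the SCR AMO oligonucleotide 8, and 6 positions carry the same base in both.

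Contacts with both ends on chromosome 19 numbered 1997360 and 393643 in SCR AMO replicates 1 and 2, and 1106492 and 890213 in L1 AMO replicates 1 and 2. Over the whole genome the totals were 112381720, 22252054, 58030519 and 46263849 in the same order, so SCR AMO replicate 1 was the deepest library and SCR AMO replicate 2 the shallowest. Each L1 AMO sample was deposited as 2 matrices, which were added. The exact permutation test used here, two-sided and with 2 samples in each group, cannot give a p below 0.333, so no single value of the chromosome can pass a threshold of 0.05. What is given for such values is each sample's level and whether the groups overlap.

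The chromosome was divided into blocks of at least 3 bins with the same sign of eigenvector 1, the main axis of the plaid pattern, taken from the mean map of the 4 samples. This gave 14 blocks, 6 of the A and 8 of the B compartment, holding 35 and 53 bins, while 29 bins lay in runs too short to count. In all, 51 bins had the A sign and 66 the B sign. Numbered from the centromere, the A blocks were block 1 (3.5 to 7.5 Mb), block 4 (23 to 24.5 Mb), block 8 (36.5 to 39 Mb), block 10 (40.5 to 43 Mb), block 11 (43.5 to 48 Mb) and block 14 (55.5 to 58 Mb). The B blocks were block 2 (11 to 14.5 Mb), block 3 (17 to 23 Mb), block 5 (25.5 to 29 Mb), block 6 (30 to 32 Mb), block 7 (33 to 36.5 Mb), block 9 (39 to 40.5 Mb), block 12 (48 to 53 Mb) and block 13 (54 to 55.5 Mb). The longest was block 3, a B block of 12 bins, followed by block 12 with 10 bins and the A blocks 11 and 1 with 9 and 8 bins.

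The blocks were also compared in their contacts with chromosome 1, which the eigenvector does not use. These contacts set which sign was called A, so the direction that follows is fixed by that choice, and only the separation of the blocks is a description. Each bin was given a preference. This is the log2 ratio of its contact frequency with the 143 B1-rich bins of chromosome 1 over that with the 240 L1-rich bins. The classes were set here, by the sign of the summed values that the study's repeat table gives within each 500-kb bin. In the mean of the SCR AMO samples, all 6 A blocks had a higher preference for B1-rich DNA than any of the 8 B blocks. Block 11 stood at 1.05 and 0.91 in SCR AMO and at 1.12 and 1.09 in L1 AMO, and the B block 12 at -0.28, -0.22, -0.31 and -0.30. Across the 117 bins this preference and eigenvector 1 correlated with r = 0.946 and 0.847 in SCR AMO and 0.924 and 0.898 in L1 AMO, a description over bins that share libraries and base composition.

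Genes could not be placed in the blocks, since the gene table used here is on the GRCm38 build. That table lists 705 protein-coding genes on chromosome 19, against 511 to 2030 on the other 18 autosomes. For orientation only, well-known genes of the chromosome lie in the order Cpt1a, a fatty acid oxidation enzyme, Malat1 and Neat1, nuclear noncoding RNAs, Fads1, a fatty acid desaturase, Jak2, a cytokine receptor kinase, Pax2 and Fgf8, developmental regulators, Smc3, a cohesin subunit, and Tcf7l2, a Wnt effector, from the centromere outward.

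**Figure D1:**
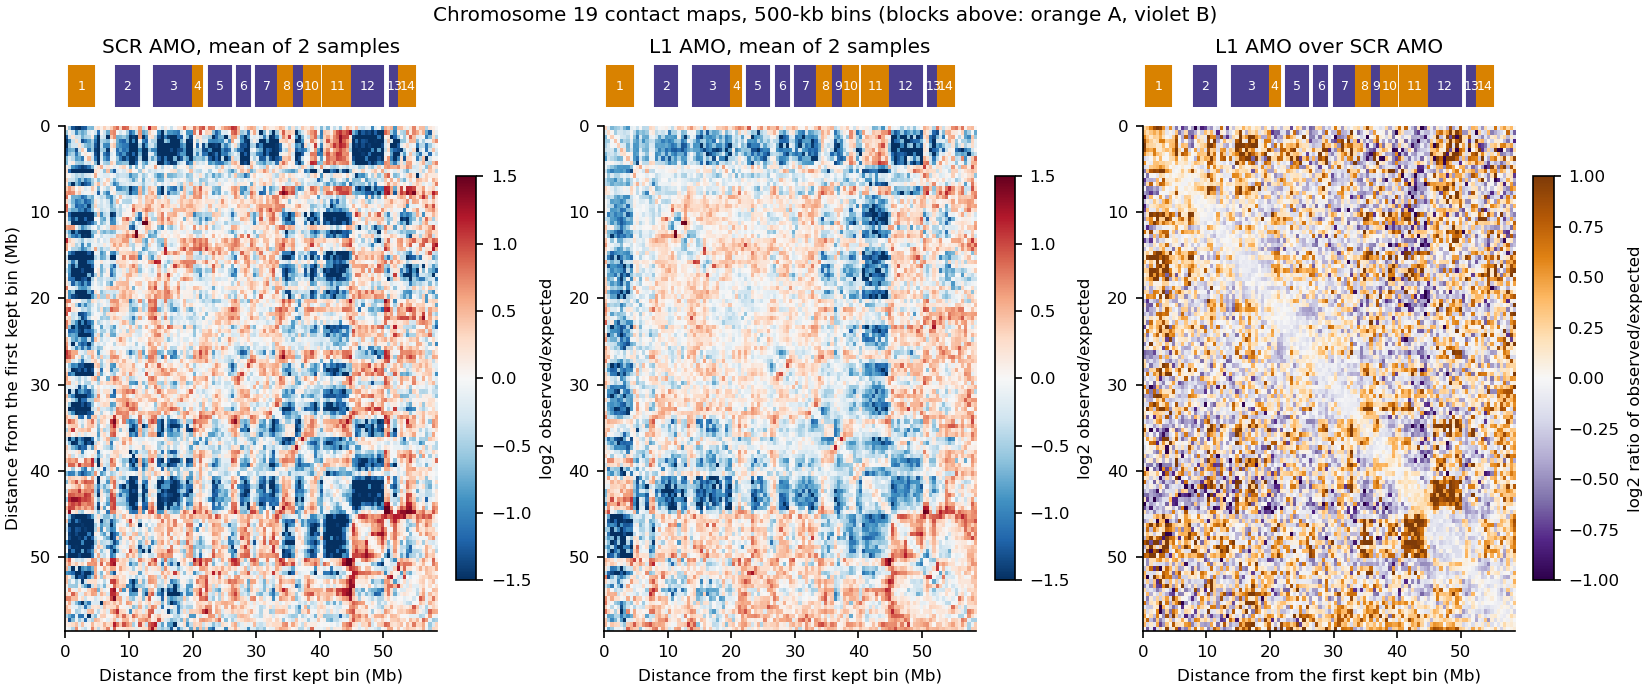
Observed/expected contact frequency on chromosome 19 in the mean of the 2 SCR AMO samples (left) and of the 2 L1 AMO samples (middle), and the log2 ratio of the latter over the former (right). Both axes give the distance from the first kept bin in Mb, and the strip above shows the 14 blocks (orange A, violet B). The blue fields where A and B blocks cross were paler in L1 AMO, and the field of blocks 11 and 12 was among the most orange in the ratio map.

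The plaid pattern of chromosome 19 was weaker in L1 AMO than in SCR AMO cells. In the 23 most A-like and 23 most B-like bins, A with A contacts and B with B contacts were lower, and contacts between A and B were higher, with no overlap between the groups for any of these. These levels are observed/expected ratios, that is, frequencies divided by the chromosome's mean at the same distance. A-A contacts stood at 1.36 and 1.38 in SCR AMO and at 1.20 and 1.15 in L1 AMO. B-B contacts stood at 1.39 and 1.45 against 1.30 and 1.32. A-B contacts, the avoided kind, stood at 0.425 and 0.401 against 0.569 and 0.565, a difference of 37.4% of the control mean. Among the other 18 autosomes this difference ranged from 15.1% to 44.5%, and chromosome 17 was the only autosome with a larger one than chromosome 19.

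Compartment strength, which sets the average homotypic level of these bins against their A-B level, was 3.24 and 3.52 in SCR AMO and 2.19 and 2.19 in L1 AMO. The means were 3.38 ± 0.202 (SD, n = 2) and 2.19 ± 0.00324 (SD, n = 2), and the exact permutation test gave p = 0.333, the smallest it allows. The difference was -1.19, or -35.2%. On the other autosomes it ranged from -36.6% to -19.3%, so chromosome 19 lay near the strong end of the range while its starting level was not extreme, 12 of 19 counted from the lowest.

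Homotypic over heterotypic frequency, a ratio over all bin pairs on the balanced scale, was 2.09 and 2.12 in SCR AMO against 1.91 and 1.88 in L1 AMO (exact permutation p = 0.333). Chromosome 19 had the lowest such ratio of the 19 autosomes in both groups. The relative difference of this ratio was -9.89%, inside the range of -11.8% to -4.67% of the other autosomes. On the observed/expected scale the ratio was 1.51 and 1.55 against 1.36 and 1.35. That is a difference of -11.5%, outside the range of -10.6% to -3.63% of the other autosomes, as a description of these 4 samples. On this scale, which corrects for distance, chromosome 19 was not the lowest. It ranked 4 of 19 from the lowest in SCR AMO and 2 of 19 in L1 AMO.

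The difference was uneven over distance and between compartments. A-A contacts were lower in L1 AMO at every distance above 2 Mb, B-B contacts were nearly level between 2.5 and 30 Mb, and A-B contacts were higher at every distance. At 2.5 to 10 Mb, A-A pairs stood at 1.33 and 1.33 in SCR AMO and at 1.12 and 1.10 in L1 AMO. The difference of -0.217 compares with -0.218 to -0.0316 on the other autosomes. B-B pairs at the same distances stood at 1.14 and 1.15 against 1.13 and 1.14, a difference of -0.0141, small beside that of the A-A pairs although the groups did not overlap. At 10.5 to 30 Mb the B-B groups overlapped.

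Beyond 30 Mb the compartments differed in opposite directions. A-A pairs at 30.5 to 58 Mb stood at 1.35 and 1.39 in SCR AMO against 1.20 and 1.16 in L1 AMO. B-B pairs stood at 1.07 and 1.09 against 1.13 and 1.16, so both L1 AMO samples were above both controls. Within 2 Mb the order was the reverse: A-A pairs stood at 0.897 and 0.892 in SCR AMO and at 0.940 and 0.946 in L1 AMO, and B-B pairs at 1.24 and 1.24 against 1.19 and 1.17.

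**Figure D2:**
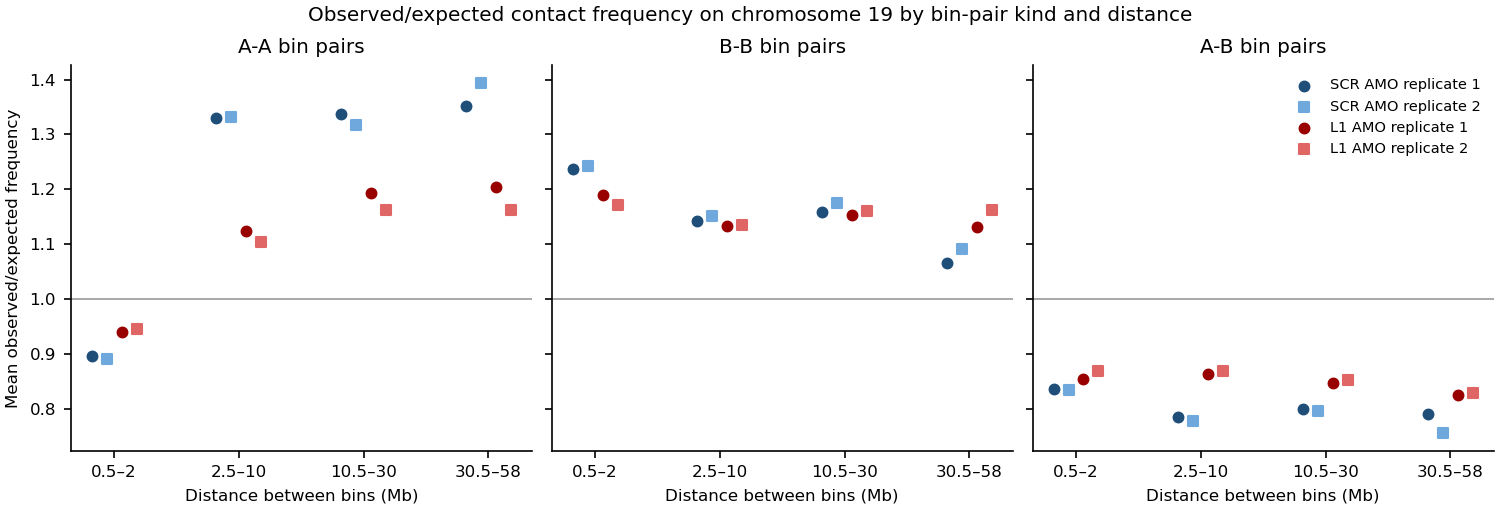
Mean observed/expected contact frequency on chromosome 19 for A-A, B-B and A-B bin pairs in 4 ranges of distance, with 1 point per sample (blue SCR AMO, red L1 AMO; circles replicate 1, squares replicate 2). A-A pairs beyond 2 Mb lay between 1.32 and 1.39 in SCR AMO and between 1.10 and 1.20 in L1 AMO, while A-B pairs were higher in L1 AMO in every range.

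Along chromosome 19, contacts at intermediate distances took a larger share in L1 AMO and long-range contacts a smaller one. Contacts between 2 and 10 Mb took 10.3% and 9.37% of the chromosome's own contact frequency in SCR AMO and 11.7% and 11.5% in L1 AMO, a difference of 1.82 percentage points (exact permutation p = 0.333). Contacts beyond 10 Mb took 11.7% and 10.8% against 10.3% and 10.0%, a difference of -1.07 points (exact permutation p = 0.333). The SCR AMO samples lay farther apart from each other than the lower of them lay above either L1 AMO sample: without SCR AMO replicate 1 the difference was -0.594 points and without SCR AMO replicate 2 it was -1.55 points. Contacts up to 2 Mb took 78.0% and 79.9% against 78.0% and 78.4%, and the groups overlapped.

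As the shortest autosome, chromosome 19 had the highest share of contacts within 2 Mb and the lowest share beyond 10 Mb of all 19, in both groups. Its difference beyond 10 Mb was the smallest in percentage points, against -2.46 to -1.18 points elsewhere. In relative terms the difference was -9.55%, inside the range of -13.4% to -7.46% of the other autosomes.

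In bands of distance, with each map scaled to the same total of within-chromosome contact frequency, the largest difference lay at 2.5 to 5 Mb. The mean frequency per bin pair there, on a scale where all within-chromosome frequencies of the autosomes sum to 1000000, was 2.02 and 1.87 in SCR AMO and 2.55 and 2.55 in L1 AMO. The log2 ratio was 0.39, with a range of 0.34 to 0.45 over the 4 pairings of samples, and the other autosomes ranged from 0.23 to 0.37. At 5.5 to 10 Mb it was 0.24, and at 10.5 to 20 Mb it was -0.08, with a range of -0.13 to -0.04. With the chromosome's own total as the scale, the log2 ratio at 2.5 to 5 Mb was 0.31 (range 0.23 to 0.38). That value lay inside the range of the other autosomes on the common scale.

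For the longest contacts of chromosome 19 the result depended on the scaling. At 40.5 to 58 Mb, which joins the ends of the chromosome, the frequency was 0.378 and 0.342 in SCR AMO and 0.351 and 0.346 in L1 AMO on the same scale, and the groups overlapped. The log2 ratio of -0.05 had a range of -0.13 to 0.04, while the other autosomes ranged from -0.30 to -0.09 at the same distances. Bin pairs of chromosome 19 at these distances were 1.22 times as frequent as the median of the other autosomes in SCR AMO and 1.39 times as frequent in L1 AMO. At 20.5 to 40 Mb the log2 ratio was -0.04, again with overlapping groups. Scaled to the chromosome's own total instead, the log2 ratios were -0.13 at 40.5 to 58 Mb (range -0.23 to -0.03) and -0.12 at 20.5 to 40 Mb (range -0.21 to -0.03), below 0 in all 4 pairings.

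**Figure D3:**
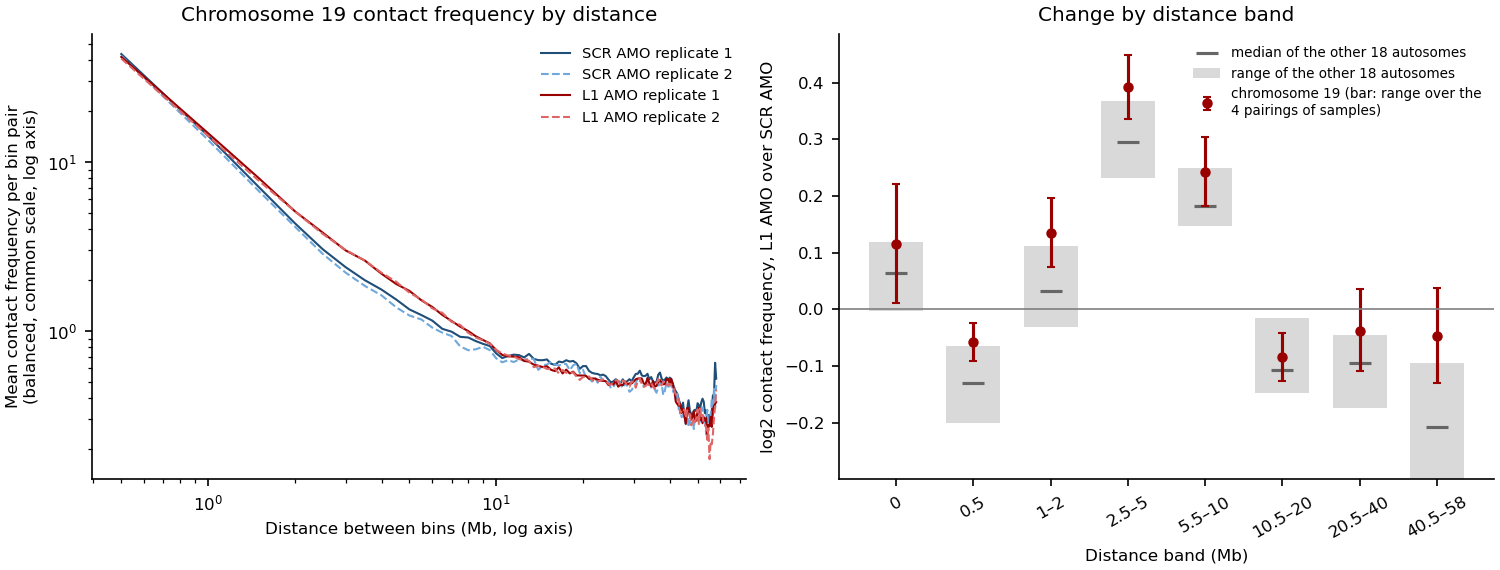
Left, mean contact frequency per bin pair of chromosome 19 against distance for the 4 samples, both axes logarithmic. Right, log2 ratio of L1 AMO over SCR AMO in distance bands, where red points are chromosome 19 with the range over the 4 pairings of samples, and grey bars and ticks are the range and median of the other 18 autosomes. With each map scaled to the same within-chromosome total, chromosome 19 stood at 0.39 at 2.5 to 5 Mb and at -0.05 at 40.5 to 58 Mb. Both lay above the other autosomes. Scaled to the chromosome's own total, these values were 0.31 and -0.13.

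Contacts with other chromosomes took a smaller share in L1 AMO. They took 45.4% and 45.1% of its balanced contacts in SCR AMO and 33.1% and 29.8% in L1 AMO, a difference of -13.8 points (exact permutation p = 0.333). The share was the highest of the 19 autosomes in both groups, and the difference in points was the largest, against -13.0 to -5.76 points elsewhere. In relative terms it was -30.5%, within the range of -31.6% to -17.9% of the other autosomes. Whether read duplicates were removed alike from the matrices of both groups is not given in the sources used here, and a difference in how the libraries were made or filtered cannot be told apart from the AMO.

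All 14 blocks had a lower share of contacts with other chromosomes in L1 AMO, with no overlap between the groups. Blocks of other autosomes were not counted, but as whole chromosomes all of them had a lower share too, with relative differences of -31.6% to -17.9%. For blocks, a contact between bins of the chromosome counted at each of its bins, while the chromosome's share above counted it once. Block levels therefore cannot be set against the chromosome's share. The difference was largest in block 1, the A block nearest the centromere, from 45.8% and 45.8% of its balanced contact frequency to 31.7% and 27.0%. Block 11 went from 38.9% and 38.9% to 26.4% and 22.8%. The B block 12 had the lowest share, 28.4% and 29.2% against 19.9% and 18.3%. Among partner chromosomes, with each partner's frequency divided by the mean over the 18, chromosome 11 was the most frequent partner in SCR AMO at 1.22 and 1.21 and stood at 1.17 and 1.13 in L1 AMO. The largest positive difference in this relative frequency was for chromosome 14, from 0.989 and 0.997 to 1.11 and 1.11.

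Each block's own choice of partners on the chromosome was measured as A/B contact preference, the log2 ratio of its mean observed/expected level with A bins over that with B bins more than 2 Mb away. All 6 A blocks had a lower preference in L1 AMO, and none of them overlapped between the groups. Blocks of other autosomes were not counted in this way, but 82.5% of all autosomal A bins were lower with no overlap. Block 1 went from 1.30 and 1.36 to 0.90 and 0.85, a difference of -0.46 and the largest of any block. Block 4, the shortest A block, went from 0.46 and 0.48 to 0.19 and 0.07, so that it contacted A and B bins almost alike. Block 8 went from 0.79 and 0.77 to 0.42 and 0.39, and block 11 from 1.14 and 1.20 to 0.83 and 0.80. Block 14, the A block nearest the chromosome end, differed least of the A blocks, from 0.58 and 0.67 to 0.41 and 0.38.

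The B blocks differed less and not all alike. In 6 of the 8 the preference was higher, that is closer to 0, in both L1 AMO samples. Of all autosomal B bins, 46.9% were higher and 23.6% lower with no overlap. Block 12 went from -0.93 and -0.95 to -0.63 and -0.60, the largest difference of any B block, at 0.33. Block 3, the longest block, went from -0.71 and -0.73 to -0.52 and -0.56. In block 5 the SCR AMO samples stood at -0.36 and -0.45 and the L1 AMO samples at -0.36 and -0.38, and in block 13 at -0.39 and -0.47 against -0.39 and -0.38, so both overlapped.

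**Figure D4:**
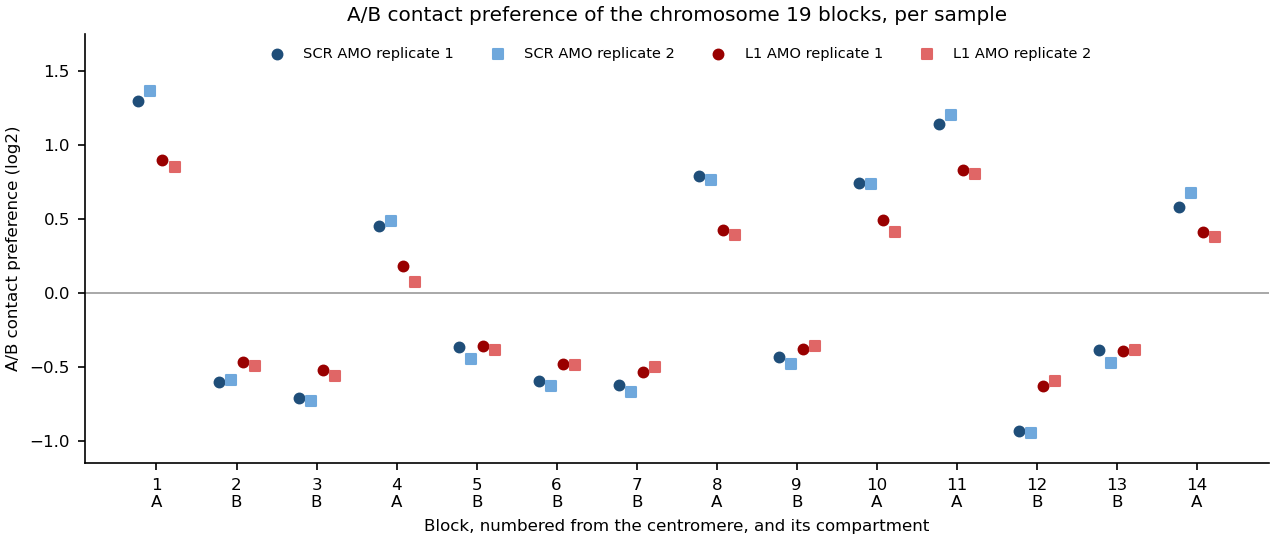
A/B contact preference (log2) of the 14 blocks of chromosome 19, numbered from the centromere, with 1 point per sample. In the 6 A blocks the red points all lay below the blue ones, and among the 8 B blocks the groups lay farthest apart in block 12, at -0.93 and -0.95 against -0.63 and -0.60.

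Over single bins, 50 of the 51 A bins had a lower preference in L1 AMO with no overlap between the groups, where 82.5% of the A bins of all autosomes did. No A bin was higher, against 2.01% of autosomal A bins. Among the 66 B bins, 38 were higher and 12 lower, against 46.9% and 23.6% of autosomal B bins. The median difference of the A bins was -0.33, with -0.23 over all autosomes, and that of the B bins was 0.10, with 0.07 over all autosomes. The shares of B bins thus lay near the background, and those of the A bins above it, with neighbouring bins not being independent.

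The A bins with the largest negative differences were 3 bins of block 1, at 6, 5 and 4.5 Mb, 1 bin of block 11 at 44.5 Mb and 1 bin of block 8 at 38 Mb, each position being the start of the bin. The bin at 6 Mb went from 1.38 and 1.55 to 0.88 and 0.82. The B bins with the largest positive differences were at 13 Mb in block 2, at 51, 52.5 and 48.5 Mb in block 12 and at 19.5 Mb in block 3. The bin at 13 Mb went from -1.13 and -1.42 to -0.69 and -0.68.

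When eigenvector 1 was taken from each sample's own map, 11 of the 117 bins had the A sign in both SCR AMO samples and the B sign in both L1 AMO samples, and 0 bins switched the other way. Over all autosomes these shares were 5.17% and 0.0418%. The 9.40% of chromosome 19 was the highest of the 19 autosomes, beside 9.19% on chromosome 17. In the mean map of the 4 samples the 11 bins had levels between -0.30 and 0.41, near the sign change. They lay at or near the edges of blocks or in short runs, for example at 14.5 Mb between blocks 2 and 3, where the level went from 0.71 and 0.66 to -0.28 and -0.32, and at 23.5 Mb inside block 4, where it went from 0.62 and 0.50 to -0.36 and -0.98. The order of bins was largely kept: eigenvectors of the SCR AMO pair and of the L1 AMO pair each correlated with r = 0.993 over bins, and those between the groups with r = 0.957 to 0.969. In every block except block 1, A and B alike, the mean level was lower in L1 AMO with no overlap between the groups. The B block 2, for example, went from -0.84 and -0.74 to -1.10 and -1.12. Blocks of other autosomes were not counted in this way. Whether the sign switches go beyond this common lowering was not tested.

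Contacts inside blocks lay closer to the chromosome's mean in L1 AMO. In SCR AMO, contacts inside A blocks were below the mean at their distance and those inside B blocks at or above it, apart from block 14. Block 1 went from 0.730 and 0.728 to 0.842 and 0.878, and block 8 from 0.821 and 0.815 to 0.878 and 0.894. Block 12 went from 1.60 and 1.60 to 1.46 and 1.45, and block 3 from 1.28 and 1.28 to 1.19 and 1.19. In all, 4 of the 6 A blocks were higher in L1 AMO with no overlap between the groups (blocks 1, 8, 10 and 11), and block 14 was lower. Of the 8 B blocks, 7 were lower and block 2 overlapped. Blocks of other autosomes were not counted in this way. On the other autosomes, A-A pairs at 0.5 to 2 Mb differed by 0.0391 to 0.101 and B-B pairs by -0.117 to -0.0445, the same directions.

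The share of a block's contact frequency on the chromosome that went beyond 10 Mb was lower in all 6 A blocks and in 5 of the 8 B blocks. Here too a contact between bins counted at each of its bins, so these levels are not on the scale of the chromosome's share. For whole chromosomes the share beyond 10 Mb was lower on every other autosome, with differences of -2.46 to -1.18 points. Block 11 went from 14.9% and 13.7% to 11.8% and 11.1%, a difference of -2.88 points and the largest of any block. Block 1 went from 14.4% and 13.3% to 11.7% and 10.6%. In block 12 it was 12.8% and 12.3% against 12.4% and 12.8%, and blocks 3, 12 and 13 overlapped.

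While the A/B contrast was lower on chromosome 19 itself, the gap between A and B blocks in preference for B1-rich DNA of chromosome 1 was not. The gap between the mean of the A blocks and the mean of the B blocks was 1.41 and 1.49 (log2) in SCR AMO and 1.01 and 0.95 in L1 AMO for the preference on chromosome 19. For the preference on chromosome 1 the gap was 0.83 and 0.76 in SCR AMO and 0.92 and 0.82 in L1 AMO, where the groups overlapped (exact permutation p = 0.667). The difference between these 2 responses was not tested. Single blocks did differ in chromosome 1 preference with no overlap between the groups. It was lower in L1 AMO in every B block except block 5 and in A blocks 4 and 8, and higher in block 11. Blocks 1, 5, 10 and 14 overlapped.

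The counts behind the plaid pattern were tested for each of the 91 pairs of different blocks, with edgeR's quasi-likelihood test on raw counts over the 5605 block pairs of all autosomes. Counts per pair and sample on chromosome 19 ranged from 67 to 12968. At a false discovery rate of 0.05, 31 pairs had more contacts in L1 AMO, 13 had fewer and 47 did not pass. Of the 15 A-A pairs 11 fell and 1 rose. Of the 28 B-B pairs 10 rose and 1 fell, and of the 48 A-B pairs 20 rose and 1 fell. Over all autosomes, 18.7%, 67.7% and 74.3% of A-A pairs fell at up to 10, 10 to 25 and 25 to 60 Mb. In the same ranges 94.5%, 33.8% and 31.8% of B-B pairs rose. For A-B pairs the shares that rose were 94.2%, 44.7% and 26.8%. On chromosome 19 the median log2 ratios of A-A, B-B and A-B pairs were -0.33, 0.14 and 0.09. The A-A pair that rose was blocks 8 and 10, singled out after its values were seen (log2 0.15, edgeR adjusted p = 0.0247). It turned to a fall with an offset for the count expected at the same distances (log2 -0.27, edgeR adjusted p = 4.2e-05), and its observed/expected level was 1.27 and 1.35 in SCR AMO against 1.14 and 1.10 in L1 AMO.

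Counted as homotypic pairs, 11 of 43 were higher and 12 lower, where 23.4% and 33.3% of all autosomal homotypic pairs were. Of the 48 heterotypic pairs 20 were higher and 1 was lower, where 32.6% and 21.9% of all autosomal heterotypic pairs were. The split depended on the scaling. Without TMM factors, which moved every log2 ratio by about the same amount (that of blocks 11 and 12 from 0.64 to 0.52), 7 homotypic pairs were higher and 17 lower, and 14 heterotypic pairs were higher and 6 lower. The autosomal shares without TMM factors were 14.6% and 45.8% of homotypic and 22.5% and 35.2% of heterotypic pairs.

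The direction of these counts differed with distance. Within 10 Mb, all 8 B-B pairs and 13 of 15 A-B pairs rose, where 94.5% and 94.2% of autosomal pairs of these kinds and distances did. From 10 to 25 Mb 5 of 7 A-A pairs fell, and from 25 to 60 Mb all 5 did, where 67.7% and 74.3% of autosomal pairs did. When the expected count at the same distances entered as an offset, 12 of the 15 A-A pairs were lower. Of the A-B pairs 13 were higher and 1 lower, and 8 B-B pairs were higher and none lower. With the offset, autosomal shares were counted for homotypic and heterotypic pairs only. As homotypic pairs, 18.6% were higher and 27.9% lower, beside 23.1% and 24.6% of all autosomal homotypic pairs, and 27.1% of the heterotypic pairs were higher and 2.08% lower, beside 27.5% and 6.08%, so with the offset these shares lay near the background.

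The largest rise was that of the neighbouring blocks 11 and 12, an A and a B block that meet at 48 Mb. They shared 9871 and 1818 contacts in SCR AMO and 7626 and 6031 in L1 AMO, and the log2 ratio after scaling was 0.64 ± 0.05 (SE, edgeR adjusted p = 3.88e-09). Their observed/expected level went from 0.424 and 0.436 to 0.633 and 0.638, so the pair stayed below the mean at its distance. The next largest rises were between blocks 12 and 14 (A-B, log2 0.61), 7 and 9 (B-B, 0.58), 5 and 6 (B-B, 0.52) and 1 and 2 (A-B, 0.51). The rise between blocks 5 and 6 did not pass with the distance offset, where the log2 ratio was 0.11 (edgeR adjusted p = 0.0637), and their observed/expected levels overlapped between the groups.

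The 5 largest falls were all between A blocks far apart. The largest was between blocks 4 and 11, whose centres lie 22 Mb apart, with 2250 and 388 contacts in SCR AMO and 811 and 541 in L1 AMO (log2 -0.53 ± 0.08 SE, edgeR adjusted p = 2.04e-05). Their observed/expected level went from 1.33 and 1.30 to 1.07 and 0.938, so a pair that was above the mean came to lie near it. The others were blocks 1 and 8 (log2 -0.45), 4 and 10 (-0.45), 1 and 11 (-0.43) and 1 and 4 (-0.42). Blocks 1 and 11, the longest A blocks, whose centres lie 40.2 Mb apart, kept a level above the mean, 1.59 and 1.66 against 1.39 and 1.27.

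Of the 13 pairs of neighbouring blocks, 11 rose and none fell on the count scale. The pairs that did not pass were blocks 10 and 11, both A, and blocks 13 and 14. Neighbours on other autosomes were not counted apart. Of all autosomal pairs within 10 Mb, 94.5% of B-B, 94.2% of A-B and 44.0% of A-A pairs rose. The centres of these neighbours lie at most 7.25 Mb apart, so their rise is not particular to chromosome 19. On the observed/expected scale the neighbours differed in direction. With no overlap between the groups, 6 were higher in L1 AMO, all A-B pairs, and 4 were lower. Of autosomal pairs at all distances, 46% of A-B, 40.3% of B-B and 6.19% of A-A pairs were higher. The shares that were lower were 18%, 24% and 70.5%. Blocks 10 and 11 went from 1.10 and 1.10 to 0.900 and 0.879. The first and last blocks, 1 and 14, lie 51.2 Mb apart and shared 1444 and 251 contacts in SCR AMO against 637 and 439 in L1 AMO. Their log2 ratio was -0.23 ± 0.08 (SE, edgeR adjusted p = 0.0251), but with the distance offset it was -0.06 (edgeR adjusted p = 0.56), and their observed/expected levels overlapped.

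**Figure D5:**
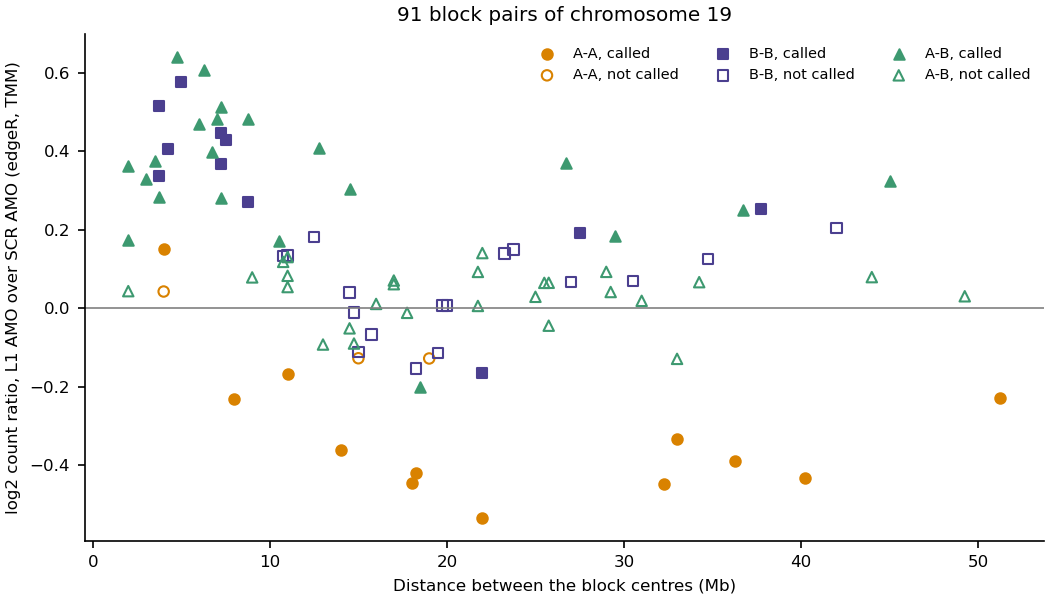
Log2 ratio of counts (L1 AMO over SCR AMO, edgeR with TMM) against the distance between block centres for the 91 block pairs of chromosome 19, by kind of pair. Filled symbols passed a false discovery rate of 0.05. Within 10 Mb B-B and A-B pairs lay above 0, and beyond 10 Mb the A-A pairs lay below 0, down to -0.53.

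On the observed/expected scale, with no test, the groups did not overlap in 12 of the 15 A-A pairs, all lower in L1 AMO, where 70.5% of autosomal A-A pairs were lower and 6.19% higher. Of the 28 B-B pairs 9 were higher and 10 lower, against 40.3% and 24% of autosomal pairs. Of the 48 A-B pairs 27 were higher and 4 lower, against 46% and 18% of autosomal pairs. The medians of the log2 ratios were -0.25 for A-A, 0.01 for B-B and 0.10 for A-B pairs, beside -0.15, 0.04 and 0.06 over all autosomes.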

How the data were processed

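The deposited matrices hold raw contact counts between 500-kb bins of mm9, which the authors made with HiC-Pro (2.7.1b in the submitters' processing notes). The 2 matrices of each L1 AMO sample were added, and 0 value columns of other series were present. Bins were dropped where coverage in some sample lay under 0.1 of the median over the chromosome, and the maps were balanced genome-wide by iterative correction. Eigenvector 1 came from the correlation of the mean observed/expected map, and the A sign was the one with more contacts to B1-rich bins of chromosome 1. Single values per sample were tested with an exact permutation of the samples (two-sided) and block-pair counts by edgeR 4.0.16 (TMM, quasi-likelihood test, Benjamini-Hochberg over the block pairs of 19 autosomes, mean count of at least 10), with DESeq2 1.42.0 as an alternative, in R 4.3.3, Python and numpy.

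Members, blocks and named regions were chosen with earlier results of these data known. Named were every block, the 5 largest rises and 5 largest falls among block pairs that passed, all neighbouring pairs, the first and last blocks, and the 5 bins with the largest rise and fall of preference without overlap. In simulated counts for 5605 block pairs, 96% of changes of log2 1 and 89% of changes of log2 0.5 were recovered. In these, 8 unchanged pairs were called. Only 200 pairs were changed there, equally up and down, with 1 dispersion and no trend with distance. The real calls were far more numerous and differed with distance, so the simulation does not give their rate of false calls. In 3 simulated maps of 117 bins all signs were recovered, with errors of at most 0.597% in strength and far share. The H3K9me3 ChIP-seq samples were not analysed here. The permutation tests and edgeR measure the spread between 2 transfections per group. Counting error is part of that spread and is not small where counts are low, down to 67 per block pair and sample.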

Additional observations from a re-analysis of the deposited data

How the results depend on the processing

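The 5 values per sample (shares from 2 to 10 Mb and beyond 10 Mb, compartment strength, homotypic over heterotypic ratio, share to other chromosomes) kept their direction under every alternative run. With single samples left out, the difference (L1 AMO minus SCR AMO) ranged from -1.55 to -0.594 points beyond 10 Mb, from 1.37 to 2.26 points between 2 and 10 Mb, from -1.33 to -1.05 in strength, from -0.223 to -0.193 in the ratio and from -15.5 to -12.1 points to other chromosomes. The size moved by over 1.5 times with corners of 50% (strength -0.21, against -1.19), with 1-Mb bins (ratio -0.115, against -0.208), with contacts inside a bin left out (2 to 10 Mb 3.58 points, against 1.82) and with limits of 5 and 20 Mb (far share -0.6 and -0.514 points, against -1.07); with 5 Mb the groups overlapped. As a replicate block, the differences within replicate numbers were -1.43 and -0.718 points beyond 10 Mb and -1.04 and -1.33 in strength (exact sign-flip p = 0.5, the smallest 2 pairs allow). Ranking bins by chromosome 1 preference, added after the data were seen, gave -1.08 in strength and -0.244 in the ratio.

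For block pairs (main counts 11 homotypic higher, 12 lower, 20 heterotypic higher, 1 lower), the replicate block gave 14, 14, 20 and 1 and kept all 44 calls. Deviations of same-numbered samples correlated at 0.182 over all autosomal pairs, with only 2 pairs of samples. No TMM factors gave 7, 17, 14 and 6, DESeq2 8, 9, 17 and 0, and the distance offset 8, 12, 13 and 1, keeping 34, 34 and 26 of the 44 calls, with 4 of the 44 in the other direction under the offset (1 of them, blocks 8 and 10, called there). Blocks of at least 2 bins gave 35, 32, 54 and 4, and of at least 5 bins 6, 6, 12 and 1, where other numbers of pairs were tested. Leaving out samples gave 8 to 14, 7 to 13, 14 to 19 and 0 to 1; without SCR AMO replicate 1 the counts were 8, 7, 14 and 0.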

Other observations

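Among the 5886 bin pairs of chromosome 19 more than 4 Mb apart, the highest mean observed/expected level of the 4 samples joined the bins that flank block 12, an A bin at its proximal side (chr19:47500001-48000000) and an A bin at its distal side (chr19:53000001-53500000). These bins were singled out after their values were seen. The pair stood at 3.58 and 4.06 in SCR AMO and at 3.47 and 3.17 in L1 AMO, from 459, 93, 267 and 189 contacts. The next distal bin, from 53.5 Mb, stood at 3.61 and 3.86 against 2.68 and 2.65 with the same proximal bin. Of the 30 highest pairs, 11 joined the bins at 47 or 47.5 Mb with bins from 53 Mb on, and 22 joined A bins with A bins.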
